A study of Mus musculus with 4 samples.

Results

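Patrolling monocytes were taken from single-cell RNA-sequencing (scRNAseq) libraries of the mouse hind limb, made from popliteal lymphatic vessels (PLVs) and the superficial saphenous vein (SSV), by the transcripts they carried. A cell was counted as a patrolling monocyte when it held at least 3 unique molecular identifiers (UMIs, each standing for 1 captured transcript) summed over Treml4, Eno3, Spn and Ace, and at least 1 UMI of Cx3cr1. It also had to hold under 10 UMIs of the macrophage genes C1qa, C1qb and C1qc, under 3 of Flt3, Cd209a and Klrd1, and under 20 UMIs of the fibroblast gene Dcn per 10000. In the wild-type (WT) and TNF-Tg libraries 367 of 8879 cells met these limits, of which 353 were TNF-Tg cells and 14 were WT cells. All 4 libraries of the study held 10837 cells. Since measured transcripts chose the cells, every comparison with other cells below is a description, and no test was applied to it.

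The study set out to characterize the muscle cells of joint-draining lymphatic vessels and how their transcripts differ under chronic TNF, and its libraries also caught blood and immune cells. WT mice and TNF-Tg mice, which carry a tumor necrosis factor (TNF) transgene and develop inflammatory-erosive arthritis, were male, 9 months old by the labels and on a C57BL6 background. Their vessel cells were sorted as live (DAPI-) events of high forward or side scatter, with no marker for blood cells. The tdT 1 and tdT 2 libraries came from Cspg4-Cre;Ai9-tdTomato mice, in which Cre driven by a pericyte and smooth muscle promoter switches on the tdTomato reporter, and were sorted for tdT+ cells. Each library pooled 3 mice, so that WT and TNF-Tg were 1 library each and the mice behind a cell are not known.

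Classical monocytes of the mouse carry surface Ly6C and the chemokine receptor CCR2 and enter inflamed tissue from the blood. Patrolling monocytes, also called Ly6C-low or nonclassical monocytes, derive largely from them under the nuclear receptor Nr4a1. They crawl along the inner wall of vessels by the integrin LFA-1 and the fractalkine receptor CX3CR1, take up debris and depend on survival signals. Both kinds of monocyte circulate, and the libraries do not show whether a cell lay inside a vessel or in its wall.

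The depth of the libraries and the cells they share bear on the values below. The TNF-Tg library held 37557627 UMIs, with a median of 10605 per cell, and the WT library 68773605, with a median of 12660. The tdT 1 and tdT 2 libraries were smaller, with 1504 and 454 cells and medians of 6393.5 and 4932.5 UMIs. In tdT 1, 516 cells were above 10% mitochondrial UMIs, against 65 in TNF-Tg, 252 in WT and 1 in tdT 2. Of the TNF-Tg barcodes 8 also occurred in another library, 3 of them in patrolling monocytes, whereas no patrolling monocyte of the other libraries had a shared barcode. The TNF-Tg patrolling monocytes had a median of 9878 UMIs and 2668 genes, near the 10930 UMIs and 2793 genes of the 385 TNF-Tg classical monocytes. A doublet caller marked 4 of the 353 cells, and these were kept.

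Patrolling monocytes made up 10.4% of the TNF-Tg library (353 of 3391 cells, 95% interval 9.40 to 11.5%), the exact binomial interval here and below covering counting error only. In the WT library they were 0.255% (14 of 5488 cells, 0.140 to 0.428%). The share was 0.598% in tdT 1 (9 of 1504, 0.274 to 1.13%) and 2.42% in tdT 2 (11 of 454). Counting cells without any Ly6c2 UMI alone, the TNF-Tg share was 5.31% (180 cells, 4.58 to 6.12%), and with the limits read after cells were thinned to 2000 UMIs it was 4.08%. The TNF-Tg share lay above the other 3, and the log2 ratio of the TNF-Tg to the WT share was 5.35 (4.59 to 6.24). The ratio depended on the limits, at 3.66 without the Cx3cr1 limit, 4.44 without the ceilings on macrophage and dendritic cell genes and 6.67 after thinning. Of the 14 WT cells, 5 were rich in Cd74, the MHC class II invariant chain, against 16 of the 353 TNF-Tg cells. In each library 2 of the patrolling cells held 3 or more UMIs of Mki67 and Top2a, genes of dividing cells. Cells rich in the neutrophil genes S100a8 and S100a9 numbered 1 in WT and 8 in TNF-Tg, and without them the ratio was 5.425. Whether all 14 WT cells were patrolling monocytes was not tested. With 1 library per genotype there was no replicate check, and genotype and library cannot be told apart. Classical monocytes were cells with Ly6c2 and Lyz2 that held under 3 UMIs of the 4 genes. Of both kinds of monocyte together, patrolling cells were 47.8% in TNF-Tg (353 of 738, 44.2 to 51.5%) and 18.2% in WT (14 of 77, 10.3 to 28.6%). They were 69.2% of 13 monocytes in tdT 1 and 47.8% of 23 in tdT 2, with intervals of 38.6 to 90.9% and 26.8 to 69.4%. The TNF-Tg library thus had both more monocytes and a larger patrolling share among them than the WT library. The WT share of monocytes rested on few cells, and without the Cx3cr1 limit it was 44.2%, against 50.3% in TNF-Tg. With the limits read after thinning, the shares of monocytes were 28.9% in TNF-Tg and 5.56% in WT.

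**Figure D1:**
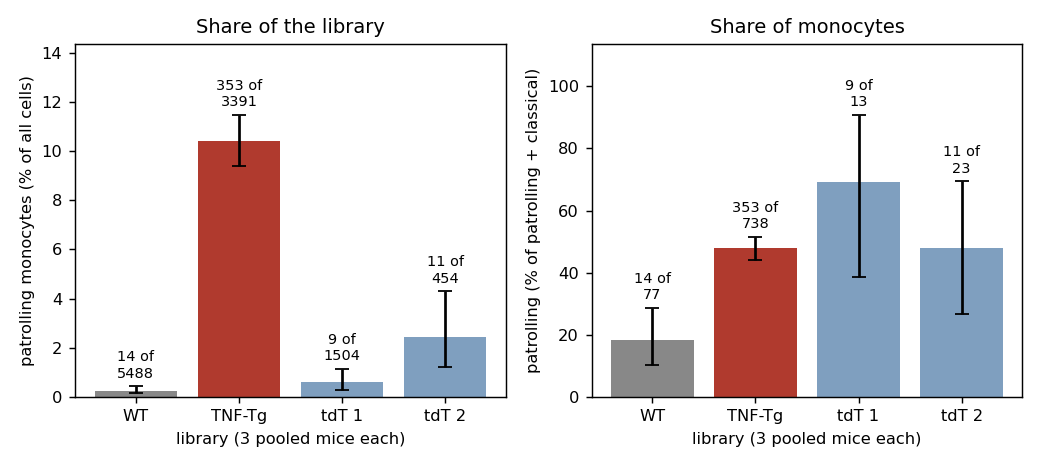
Bars give the patrolling monocytes of each library as a percentage of all its cells (left) and of its patrolling plus classical monocytes (right), with exact 95% binomial intervals and the numbers of cells above each bar. TNF-Tg stands at 10.4% of all cells and the other 3 libraries at 2.42% or less, whereas the right-hand intervals of the tdT libraries are wide.

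The genes of the gate were checked against the other myeloid cells of the TNF-Tg library as a description only. Each level is the sum of a gene's UMIs in all cells of a class, per 1000000 UMIs of that class (CPM). Treml4, a receptor of the Trem family, was at 321 CPM in patrolling monocytes and 14.0 CPM in classical monocytes. Ace, which encodes angiotensin-converting enzyme, was at 402 against 5.28 CPM, and Spn, the sialophorin CD43 that labels these cells in flow cytometry, at 385 against 30.8 CPM. Eno3, the muscle-type enolase, was at 307 against 1.38 CPM and Cx3cr1 at 540 against 201 CPM. In the mouse genome (GRCm38, the gene models of GENCODE M21) Treml4 lies at chr17:48264295-48275360, Spn at chr7:127132232-127137823, Ace at chr11:105967945-105989964 and Eno3 at chr11:70657202-70662513, so that the 4 genes stand at separate loci. The limits were met by most cells through several genes, 190 cells holding all 4 summed genes and 16 holding only 1. Ace alone would not have set the cells apart from vessel wall cells, since stromal cells of the library held it at 365 CPM and 84.4% of them had a UMI of it.

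The limit fell within a continuous range. The sum of the 4 genes ran from 3 to 72 UMIs with a median of 11, and 42 cells stood at exactly 3. Another 52 cells met every other limit with 2 UMIs, and 45 of those were counted as classical monocytes. Just inside the limit Nr4a1 was at 267 CPM and just outside it at 269 CPM. Gngt2 was at 1456 against 990 CPM, Itgal at 333 against 199 CPM and Ly6c2 at 716 against 800 CPM. Cells on both sides of the limit therefore carried both sets of monocyte transcripts.

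Beyond the genes of the gate, the cells carried the transcripts known for patrolling monocytes. Of a list of 25 such genes, 24 reached 50 CPM in a myeloid class of the TNF-Tg library, and 18 of these were highest in patrolling monocytes among 6 classes (patrolling and classical monocytes, neutrophils, Lyve1 macrophages, macrophages without Lyve1 and conventional dendritic cells). Of all 4035 genes at that level, 16.1% were highest there. Against classical monocytes, 19 of 23 listed genes at 50 CPM were at least 2-fold higher (with 5 CPM added to both levels) and 0 at least 2-fold lower, with a median log2 ratio of 2.40. Of all 2862 genes compared, 183 were at least 2-fold higher (6.39%) and 63 at least 2-fold lower (2.2%), and the median was 0.03. Since 12 of the 23 listed genes reached 50 CPM in patrolling monocytes alone, their count had to lean upward, and over all 25 listed genes the median was 2.41. The label thus met its markers, although these are genes of the very cells that the limits chose, and the list was drawn up with earlier results of these data known. Classical monocytes were the nearest class, with 8.6% of genes past 2-fold in either direction. Against neutrophils 41.2% of genes were at least 2-fold higher and 14.5% lower, against Lyve1 macrophages 14.1% and 18.8%, against macrophages without Lyve1 13.2% and 10.6%, and against conventional dendritic cells 16.7% and 6.75%.

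Itgal encodes the alpha chain of LFA-1 and stood at 697 CPM in patrolling monocytes, 109 in classical monocytes, 284 in neutrophils and 41.7 in conventional dendritic cells. Its log2 ratio to classical monocytes was 2.67 (exact 95% interval 2.53 to 2.82, counting error only, as for all ratios below). Gngt2, a G protein gamma subunit, was at 2496 CPM against 569 CPM in classical monocytes and 171 CPM or less in the other 4 classes. These levels were general to the cells: after cells were thinned to 2000 UMIs, which left out 3 patrolling, 2 classical and 53 stromal cells that were shallower, 98.3% of 350 patrolling monocytes had Gngt2 and 70.9% had Itgal, against 61.1% and 20.4% of 383 classical monocytes. Before thinning the shares were 99.7% and 94.1%, against 93.8% and 60.5%. Among 1110 stromal cells (median 11855 UMIs before thinning), taken as a guide to the background of free RNA, 0.811% had Itgal and 27.5% had Gngt2. Whether the stromal Gngt2 was free RNA or expressed there was not tested, so that low shares of Gngt2 cannot be read.

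**Figure D2:**
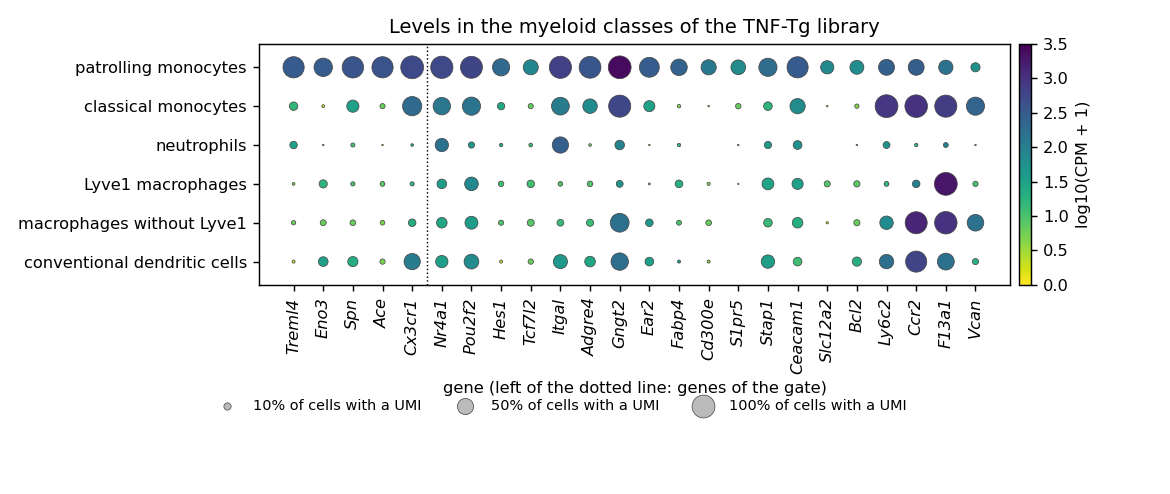
Each dot gives 1 gene in 1 myeloid class of the TNF-Tg library, with color for the level (log10 of CPM plus 1) and area for the percentage of cells with a UMI. The genes of the gate stand left of the dotted line, and Gngt2, Itgal, Ear2 and Cd300e to its right are highest in the patrolling monocytes of the top row, whereas Ccr2, F13a1 and Vcan are not.

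In a stricter comparison, 17 of 4035 genes (0.421%) were at least 4-fold above every one of the other 5 classes. All but Adgre4, Ceacam1, Gngt2 and Pou2f2 stood under 50 CPM in those 5 classes. They were thus counted through patrolling monocytes alone and leaned upward by construction. A further 693 cells of the library, which met the limits of no named class, were not among the 5. Of the 17 genes, 4 were the globin genes Hbb-bs, Hba-a2, Hba-a1 and Hbb-bt, and they came from 1 cell. That cell held 4690 of the 4772 globin UMIs of all 353 cells (98.3%), and globin made up 31.3% of its 15005 UMIs. In the other 352 cells globin stood at 22.8 CPM, against 18.1 CPM in classical monocytes. The globin genes therefore describe 1 barcode and not the population, and the unnamed cells of the library held Hbb-bs at 41255 CPM.

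The remaining 13 genes were spread over many cells, the 3 richest cells holding 2.74% to 8.95% of each gene's UMIs. Cd300e, an activating receptor of the CD300 family, was at 121 CPM with UMIs in 44.2% of cells, and at 5.56 CPM or less in every other class. Hes1, a repressor downstream of Notch signaling, was at 202 CPM against 23.7 CPM in classical monocytes and 21.4 CPM in neutrophils. Ear2, a ribonuclease of the eosinophil family, was at 299 CPM against 41.7 CPM in macrophages without Lyve1, the next highest class, although its close relatives can share reads with it. S1pr5, a sphingosine-1-phosphate receptor known for releasing patrolling monocytes from bone marrow, was at 64.6 CPM against 8.01 CPM or less in the other 5 classes. Adgre4, a receptor with epidermal growth factor modules, was at 370 CPM against 65.4 in classical monocytes. Tcf7l2, a transcription factor of Wnt signaling, was at 76.5 CPM and at most 10.9 CPM in the other classes. The others were Slc12a2, an ion cotransporter, Fabp4, a fatty acid carrier, Ceacam1, a cell adhesion molecule, Stap1, a signaling adaptor, Gngt2, Pou2f2 and the unnamed gene model Gm5547. Against the 693 unnamed cells, 10 of the 13 were also at least 4-fold higher, and Fabp4 (59.95 CPM there), Stap1 (54.2 CPM) and Gm5547 (22.7 CPM) were not. Stromal cells held Tcf7l2 at 52.5 CPM and Hes1 at 51.2 CPM.

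Genes for cell survival differed by member. Among 7 counted survival genes, 5 were at least 2-fold higher in patrolling than in classical monocytes and 0 lower, with a median log2 ratio of 2.95. Of these 7, 4 (Bcl2 and 3 near-identical Bcl2a1 copies) reached 50 CPM in patrolling monocytes alone and so had to differ, and over all 9 listed genes the median was 1.04. Bcl2, which blocks the mitochondrial death pathway, was at 60.2 against 3.44 CPM (4.13, 3.37 to 4.99). The related genes Bcl2a1b, Bcl2a1d and Bcl2a1a were at 171, 129 and 71.2 CPM against 4.36, 6.66 and 2.76 CPM. These 3 genes are near-identical copies, and reads that fit several of them may have been dropped or split in counting, so that their sum is safer. Summed, they were at 371 CPM (352 to 392) in patrolling monocytes, 13.8 in classical monocytes, 82.8 in neutrophils, 209 in conventional dendritic cells and under 20 in both macrophage classes. Csf1r, the receptor for colony-stimulating factor 1, was at 788 against 382 CPM. Mcl1, another inhibitor of cell death, was at 817 and 824 CPM, and the death effector Bax at 269 and 253 CPM. The higher level was thus shared by the Bcl2 and Bcl2a1 genes and Csf1r, and not by the list as a whole.

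The promoters of Bcl2a1b and Bcl2a1d are shown because these copies moved together (that of Bcl2a1a is nearly the same as that of Bcl2a1b), and that of Ly6c2 because it was lower in the same cells. Sequences are from RefSeq (GRCm38.p6), from 250 bases before to 50 bases after the transcript start, and capitals mark each match to GAGGAAGT, a form of the site of the myeloid factor PU.1. The windows are chr9:89199023-89199322 (plus strand, Bcl2a1b), chr9:88731801-88732100 (minus strand, Bcl2a1d) and chr15:75111922-75112221 (minus strand, Ly6c2).
Bcl2a1b: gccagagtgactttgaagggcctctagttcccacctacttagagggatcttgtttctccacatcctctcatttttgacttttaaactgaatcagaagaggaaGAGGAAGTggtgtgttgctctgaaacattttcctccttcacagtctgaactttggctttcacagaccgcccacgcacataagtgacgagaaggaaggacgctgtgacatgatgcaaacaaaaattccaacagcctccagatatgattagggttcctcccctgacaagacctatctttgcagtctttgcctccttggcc
Bcl2a1d: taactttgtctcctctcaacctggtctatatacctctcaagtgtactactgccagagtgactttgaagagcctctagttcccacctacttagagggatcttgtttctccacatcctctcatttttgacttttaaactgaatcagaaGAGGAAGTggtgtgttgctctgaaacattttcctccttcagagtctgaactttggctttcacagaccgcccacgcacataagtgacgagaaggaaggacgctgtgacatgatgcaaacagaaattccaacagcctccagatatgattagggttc
Ly6c2: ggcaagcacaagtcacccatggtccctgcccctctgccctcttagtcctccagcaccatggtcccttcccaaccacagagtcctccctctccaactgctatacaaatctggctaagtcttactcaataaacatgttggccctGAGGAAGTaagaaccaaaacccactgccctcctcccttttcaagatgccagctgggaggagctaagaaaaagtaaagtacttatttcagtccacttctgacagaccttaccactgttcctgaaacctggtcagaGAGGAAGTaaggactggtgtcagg
The letters were searched on both strands and occurred in 3.20% of 32851 promoters. Promoters were given for 10 of the 15 genes highest and 10 of the 15 lowest against classical monocytes, and the letters stood in 3 and 2 of these, the latter being F13a1 and Pf4. They stood once in each Bcl2a1 promoter, on the sense strand, and the Bcl2a1a and Bcl2a1b promoters were the same at 254 of 256 aligned bases. Aligned with a gap of 6 bases, Bcl2a1d was the same as Bcl2a1a at 288 of 294 bases and as Bcl2a1b at 247 of 250. Ly6c2 carried the letters at 2 places, although its lower level was fixed by choosing classical monocytes that held it. With F13a1 and Pf4 among the lowest genes also carrying the letters, the match did not separate the genes by direction. Neither these letters nor AAAGGTCA (the element bound by Nr4a1, in 1.51% of promoters), TTGCGCAA (C/EBP, 0.183%), CCACACCC (KLF, 3.56%) or ATGCAAAT (the octamer bound by Pou2f2, 1.74%) stood in the promoters of Treml4, Eno3, Spn, Ace or Cx3cr1. A match of letters is a description of sequence and no evidence of binding.

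Of 19 counted transcription factor genes, 6 were at least 2-fold higher than in classical monocytes and 2 were lower, with a median log2 ratio of 0.38. Nr4a1, on which patrolling monocytes depend, was at 555 CPM against 130 CPM (2.10, 1.96 to 2.23) and had UMIs in 94.9% of the cells. Pou2f2, the B cell octamer factor OCT2, was at 601 against 143 CPM (2.07, 1.94 to 2.20), and Klf4, a factor of monocyte maturation, at 518 against 181 CPM. Hes1, Bcl6, a zinc finger repressor (92.0 against 21.1 CPM), and Nfe2l2, the oxidative stress factor NRF2 (690 against 304 CPM), completed the higher group, of which Hes1 and Bcl6 reached 50 CPM in patrolling monocytes alone. Over all 23 listed genes the median was 0.18. Maf, a factor of macrophage differentiation, was lower, at 22.5 against 121 CPM, and reached 50 CPM in classical monocytes alone. Cebpb, needed for the survival of patrolling monocytes, and Spi1, which encodes PU.1, stayed under 2-fold at 3683 against 2253 CPM and 991 against 628 CPM.

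Nr4a1 is also an immediate early gene that tissue dissociation can induce, and the vessels had been digested with enzymes. Of 8 other counted dissociation-response genes, 0 were 2-fold higher and 0 lower, with a median log2 ratio of -0.01. Over all 11 listed genes the median was 0.13. Of all 2862 genes compared, only 8.6% passed 2-fold in either direction, so that 0 of 8 is near the general share. Fos was at 1094 against 1768 CPM, Junb at 1120 against 1255 CPM, Egr1 at 70.4 against 90.9 CPM and Atf3 at 103 against 146 CPM. Dusp1 (671 against 477 CPM), Jun (308 against 240 CPM), Ier2 (486 against 439.5 CPM) and Zfp36 (601.5 against 540 CPM) were higher, as Nr4a1 was. Nr4a1 differed between the monocyte classes by more than 2-fold and these genes by less, as most genes did. The part of digestion in the level of Nr4a1 was not tested.

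The 4 adhesion genes past 2-fold on the higher side were all integrin chains. Of 12 counted adhesion genes 4 were at least 2-fold higher and 1 was lower, with a median of 0.36. Besides Itgal, its partner chain Itgb2 was at 635 against 281 CPM (1.18, 1.08 to 1.28). Itga4 and Itgb1, which pair to the VLA-4 integrin, were at 705 against 302 CPM and 590 against 222.5 CPM. Itgam, the alpha chain of Mac-1, differed little (315 against 269.5 CPM), and Itgb7 was lower but under 2-fold (119 against 191 CPM). Cd44, the hyaluronan receptor, was at 440 against 275 CPM.

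Among 7 counted migration receptors, 2 were at least 2-fold higher and 3 were lower, with a median of 0.62, or 0.12 over all 14 listed genes outside the gate. Both higher genes reached 50 CPM in patrolling monocytes alone, so that their side was fixed by that limit. S1pr5 and Fpr1, a receptor for bacterial formyl peptides (92.9 against 24.8 CPM), were higher. Ccr2, by which classical monocytes leave the marrow and enter tissue, was at 294 against 1008 CPM (-1.78, -1.88 to -1.68). Ccr1, another chemokine receptor, was at 20.2 against 123 CPM, and Gpr183, an oxysterol receptor, at 23.3 against 96.9 CPM. Ccr1 and Gpr183 reached 50 CPM in classical monocytes alone, so that their side was fixed as well. Of the 13 counted classical monocyte markers, 7 were lower and 0 higher, with a median of -1.20. They included F13a1, the coagulation factor XIII A chain (151 against 766 CPM), Vcan, a proteoglycan (50.7 against 239 CPM), and Fn1, fibronectin (562 against 1298 CPM). Thbs1 and Mmp8 were also among the 7, but reached 50 CPM in classical monocytes alone. Hp, haptoglobin, and S100a4 did not follow the lower markers, at 2104 against 1973 CPM and 3779 against 4173 CPM.

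**Figure D3:**
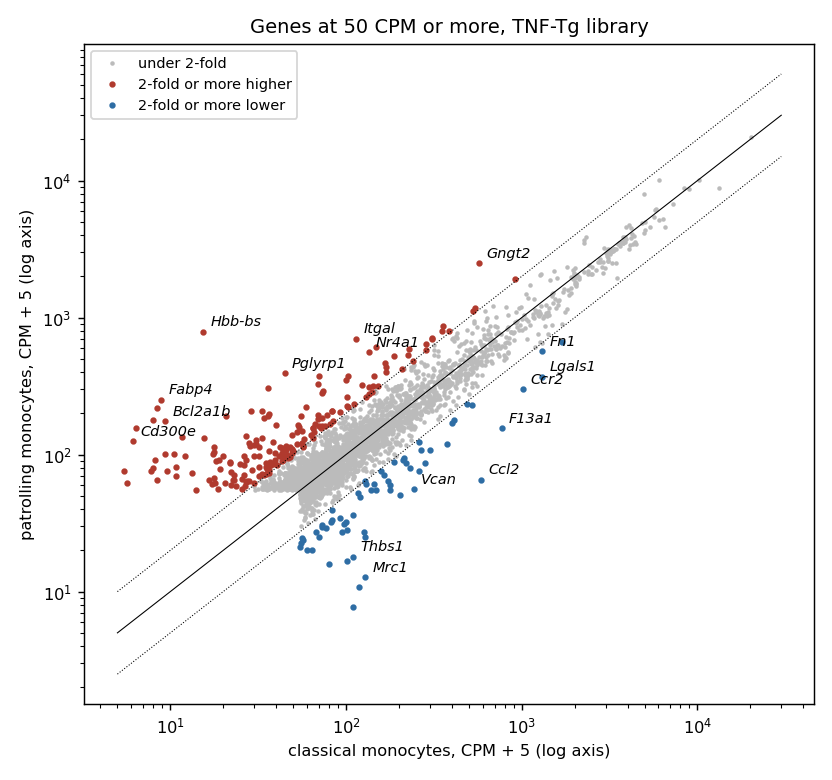
Each point is 1 of the 2862 genes compared in the TNF-Tg library, with its level in classical monocytes on the horizontal and in patrolling monocytes on the vertical axis (CPM plus 5, log axes). The solid line marks equal levels and the dotted lines 2-fold, with 183 genes above and 63 below, and Hbb-bs rests on 1 cell.

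Cytokine genes went in both directions. Of 9 counted genes 2 were at least 2-fold higher and 3 lower, with a median of -0.33. The monocyte-attracting chemokines Ccl2 and Ccl7 were at 60.7 against 585 CPM and 5.82 against 114 CPM, and Ccl9 at 165 against 394 CPM. In the classical monocytes Ccl7 lay in 45 of 385 cells, whereas Ccl2 lay in 212. Il1b, the inflammatory cytokine IL-1 beta, was higher in patrolling monocytes (373 against 97.6 CPM, 1.93, 1.78 to 2.10), as was Pdgfb, a growth factor for pericytes and smooth muscle (75.4 against 2.99 CPM, 4.66, 3.86 to 5.59). Pdgfb had UMIs in 120 of the 353 cells. Ccl3, another chemokine, was at 55.4 against 42.7 CPM (0.38, 0.08 to 0.67). Ccl3 and Pdgfb reached 50 CPM in patrolling monocytes alone and so leaned upward by construction. Ccl7 reached it in classical monocytes alone and so leaned downward. Over all 23 listed genes, 14 of them under 50 CPM, the median was -0.03.

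Of 10 counted receptors and regulators of TNF signaling 3 were at least 2-fold higher and 0 lower, with a median of 0.74. Of the 10, 4 reached 50 CPM in patrolling monocytes alone, Traf1 and Nfkbiz among them, and so leaned upward by construction. Over all 13 listed genes the median was 0.55. Traf1, an adaptor of TNF receptors, was at 98.7 against 12.6 CPM (2.97, 2.55 to 3.40). Tnfrsf1b, which encodes TNF receptor 2, was at 308 against 130 CPM, and Nfkbiz, a nuclear inhibitor of NF-kB, at 110 against 40.4 CPM. Tnfrsf1a, which encodes TNF receptor 1, differed little (136 against 107 CPM), and Nfkbia, the inhibitor IkB-alpha, stayed under 2-fold (856 against 654 CPM).

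Fc receptors for antibody diverged by gene. Fcgr4, the receptor known from patrolling monocytes, was at 73.7 against 14.2 CPM (2.37, 1.97 to 2.80), with 70.9 CPM in macrophages without Lyve1. Fcgr1, the high-affinity receptor of inflammatory monocytes and macrophages, was at 10.8 against 74.6 CPM (-2.79, -3.31 to -2.31). The other 3 counted genes stayed under 2-fold, and the median was -0.52. Between the monocyte classes, Fcgr4 reached 50 CPM in patrolling cells alone and Fcgr1 in classical cells alone. Their sides were thus fixed by that limit, and over all 7 listed genes the median was -0.305. Of 3 counted Trem genes, Trem1 (57.1 against 12.9 CPM) and Trem3 (217 against 97.6 CPM), activating receptors of myeloid cells, were higher, and Trem2 was not (117.5 against 111 CPM). Trem1 reached 50 CPM in patrolling monocytes alone, and over the 5 listed genes outside the gate the median was 0.08.

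Genes of lipid handling were led by Fabp4, at 247 against 3.90 CPM (5.99, 5.30 to 6.77), with UMIs in 185 cells. Pltp, a phospholipid transfer protein, was at 86.2 against 14.0 CPM, and these were the 2 of 9 counted genes that were at least 2-fold higher, with 0 lower and a median of 0.51. Both reached 50 CPM in patrolling monocytes alone, and over all 12 listed genes the median was 0.64. Apoc2, which activates lipoprotein lipase, was at 627 against 312 CPM, just under the 2-fold limit once 5 CPM were added to both levels. Of 6 counted MHC class II genes 2 were lower and 0 higher (median -0.15), these being the peptide loading genes H2-DMa and H2-DMb1. The antigen presenting chains H2-Aa (203 against 208 CPM) and H2-Eb1 (137 against 121.5 CPM) and Cd74 (760 against 710 CPM) differed little. Of 9 counted interferon-stimulated genes 1, Isg15, was lower (22.5 against 90.2 CPM) and 0 higher (median -0.37, or -0.85 over all 15 listed genes). Isg15 reached 50 CPM in classical monocytes alone, so that its side was fixed by that limit. Of 5 counted complement genes, Cfp (properdin, 74.3 against 225.5 CPM) was lower and 0 were higher. Of 7 counted proteases and inhibitors, the cathepsin gene Ctsl (46.0 against 198 CPM) and the neutrophil collagenase gene Mmp8 (24.1 against 71.6 CPM) were lower and 0 higher, with a median of -0.65, or -0.05 over all 11 listed genes. Both reached 50 CPM in classical monocytes alone, so that their side was fixed by that limit. Of 7 counted glycolysis genes 0 passed 2-fold either way (median -0.15), although Eno3, the enolase of the gate, was high. Of 6 counted macrophage markers 3 were lower, Mrc1 and Maf among them, and 0 higher. Mrc1 and Maf reached 50 CPM in classical monocytes alone, so that their side was fixed by that limit. The gate also held a ceiling on the macrophage genes C1qa, C1qb and C1qc. Apoe, the apolipoprotein of macrophages, was at 843 against 719 CPM, and Trem2 as given above.

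**Figure D4:**
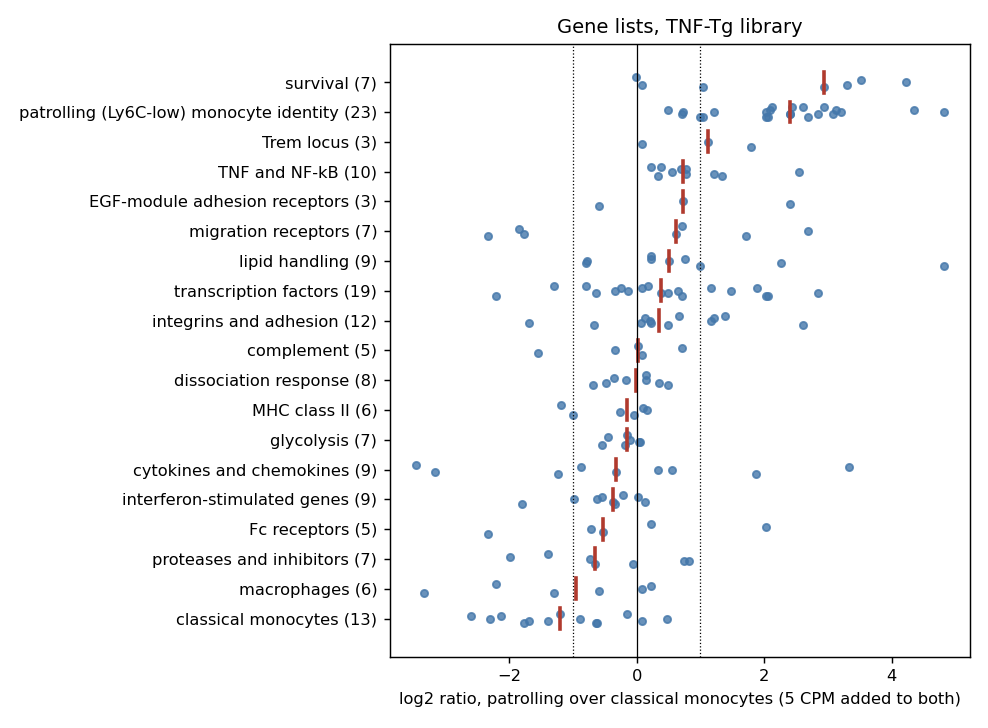
Each point gives the log2 ratio of 1 counted gene between patrolling and classical monocytes of the TNF-Tg library, grouped by list with the number of counted genes in brackets, for lists of 3 or more counted genes other than the globin genes. Red marks are medians, from 2.95 for survival genes to -1.20 for classical monocyte markers, and the dotted lines are 2-fold in either direction.

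The 15 genes highest and the 15 lowest against classical monocytes were taken for a closer view. Many of these reached 50 CPM in patrolling or in classical monocytes alone and so leaned to that side by construction. The highest held the 4 globin genes, Fabp4, Cd300e, Pdgfb, the 3 Bcl2a1 genes, Slc12a2, Dusp16, Ets1, Rpl3l and Tgm2. Dusp16, a phosphatase of stress kinases, was at 86.2 against 3.21 CPM (4.75, 3.98 to 5.63). Tgm2, tissue transglutaminase, was at 95.6 against 5.51 CPM, and Rpl3l, a ribosomal protein best known from striated muscle, at 95.9 against 4.36 CPM. Ets1, a lymphoid and vascular transcription factor, and Slc12a2 rested on 3 and 2 UMIs in classical monocytes, with intervals of the log2 ratio of 4.80 to 8.66 and 5.41 to 10.3. Leaving out the 4 globin genes, each was found in 32.6% to 52.4% of the cells before thinning. The lowest genes were Dab2, Ccl7, Mrc1, Ccl2, Pf4, Thbs1, Ccr1, Fcgr1, F13a1, Maf, Vcan, Ctsl, Gpr183, Lgals1 and Clec4a2. Without the ceilings on macrophage and dendritic cell genes, Pf4 was higher instead. Dab2, an endocytic adaptor of resident macrophages (2.77 against 105 CPM), and Mrc1, the mannose receptor (7.76 against 123 CPM), lay in 58 and 60 of the 385 classical monocytes, and Pf4 in 50. Lgals1, galectin-1, lay in 377 of them (366 against 1298 CPM). A few macrophage genes among the lowest were thus held by a minority of the classical cells, whereas F13a1 (362 cells) and Lgals1 were general to them.

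Within the patrolling monocytes several transcripts were graded along the sum of the 4 genes of the gate. Cells with 3 to 5 (90 cells), 6 to 9 (65), 10 to 19 (104) and 20 or more UMIs (94) had Nr4a1 at 367, 447, 560 and 736 CPM. Itgal stood at 358, 561, 722.5 and 986 CPM in the same order, and Cd300e at 16.4, 97.0, 161 and 178 CPM. Ccr2 went the other way, at 536, 317.5, 261 and 130 CPM, and so did F13a1, at 334, 124, 129 and 42.9 CPM. The steps joined those of the classical monocytes, in which cells with 0, 1 and 2 UMIs had Nr4a1 at 80.8, 176 and 230 CPM and Ccr2 at 1140, 904 and 690 CPM. The pattern held at equal depth: with the 286 patrolling monocytes of 5000 UMIs or more thinned to 5000 and placed again, cells with 0 or 1 UMI of the 4 genes had Nr4a1 at 336 CPM and Ccr2 at 682 CPM, and cells with 8 or more had 746 and 60.7 CPM. The 67 shallower cells were left out, and 64 of these had no Ly6c2. Not every gene was graded over the same 4 groups of unthinned patrolling monocytes. Klf2 stood at 1420, 1585, 1595 and 1388 CPM and Hes1 at 136.5, 249, 152 and 268 CPM. The classical gene Plac8 stood at 3321, 3503, 2801 and 2913 CPM, above the 1683 CPM of classical monocytes with 0 UMIs of the 4 genes. The grading was read on the genes that chose the cells and is a description of these libraries.

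**Figure D5:**
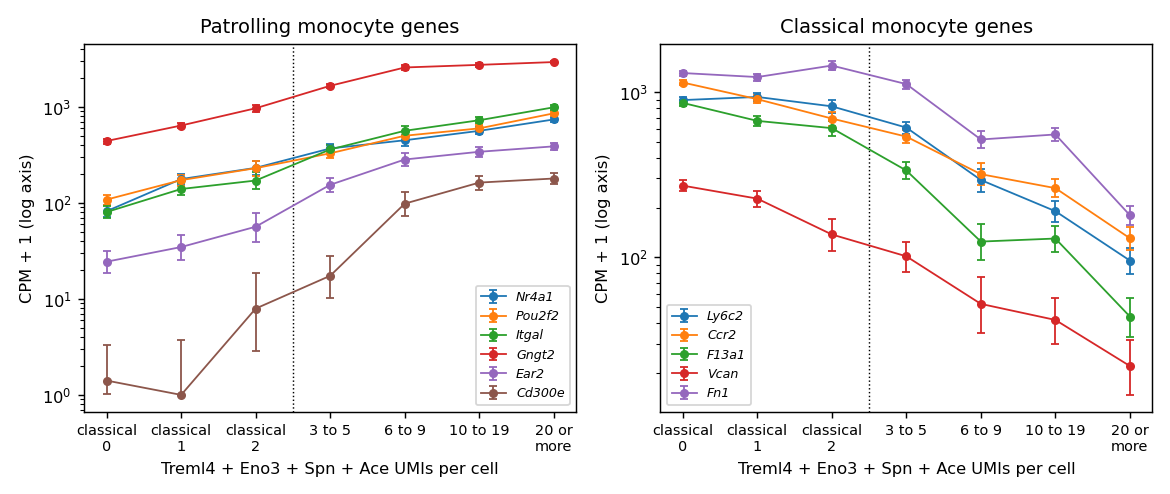
Levels (CPM plus 1, log axis) are drawn against the summed UMIs of Treml4, Eno3, Spn and Ace per cell, for classical monocytes left of the dotted line and patrolling monocytes right of it, with exact 95% Poisson intervals. Itgal, a patrolling monocyte gene, climbs from 79.1 to 986 CPM and F13a1, a classical one, descends from 858 to 42.9 CPM, on both sides of the limit.

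Ly6c2 itself, which names the Ly6C-low state, was not read by the gate. It was not detected in 180 of the 353 cells (51.0%), and stood at 1 or 2 UMIs in 63 and at 3 or more in 110. The 180 cells without it had a median of 6868.5 UMIs, the 110 cells 11236. Cells without Ly6c2 had Cd300e at 235 CPM, Fcgr4 at 141 CPM and Pglyrp1, a peptidoglycan recognition protein that neutrophils also make, at 638 CPM, against 18.7, 20.8 and 175 CPM in cells with 3 or more. F13a1 stood at 25.4 against 304 CPM and Ccr2 at 131 against 432 CPM. In the cells without Ly6c2 alone, 334 genes were at least 2-fold higher than in classical monocytes and 157 lower, in place of 183 and 63. The 353 cells therefore span a part without detected Ly6c2 and a part with both transcript sets. All 173 cells with Ly6c2 met the limits on Ly6c2, Chil3, Plac8 and Lyz2 that classical monocytes met. The cells without Ly6c2 were shallower and this split was not repeated at equal depth, so that missing and missed Ly6c2 cannot be told apart.

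RNA of other cell types was mostly low. Over the 353 cells the 5 T cell markers summed to 5 UMIs, all of Cd3d, with Cd3e, Cd3g, Trac and Trbc2 at 0. The B cell markers summed to 45 UMIs, led by Cd79b with 37 and followed by Cd79a with 8, with Ms4a1 at 0. The natural killer markers summed to 6 UMIs, led by Klrd1 with 3 and with Ncr1 at 0, and the plasmacytoid dendritic cell markers to 4, with Ccr9 at 3 and Siglech at 0. These lists thus held few UMIs for their number of cells, although Klrd1, Flt3 and Cd209a were limited by the gate. The endothelial markers summed to 46 UMIs, of which Pecam1 held 41, with Cdh5 and Cldn5 at 0. The platelet markers summed to 48 UMIs, of which Pf4 held 42, with Gp9 and Gp1bb at 0, and the conventional dendritic cell markers to 23, of which Flt3 held 13. The mast cell and basophil markers summed to 148 UMIs (41.0 CPM), led by Mcpt4. The part of these RNAs in the results was not tested. The 6 stroma markers summed to 151 CPM, led by Gsn, and the 13 macrophage markers to 1168 CPM, led by Apoe. The 7 neutrophil markers summed to 2719 CPM, led by S100a9, with Ly6g at 0. Of the S100a8 and S100a9 UMIs, 8 cells that also met the neutrophil limits held 95.2%, and the other 345 cells held them at 127.5 CPM, against 183 CPM in classical monocytes. Without those 8 cells, 185 genes were at least 2-fold higher than in classical monocytes, against 183 with them.

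The same genes were looked up in the other libraries, whose few cells allow a direction and little more. Of the 30 highest and lowest genes, 22 had the same direction between patrolling and classical monocytes in WT, 22 in tdT 1 and 18 in tdT 2, and 15 in all 3. No gene was opposite in all 3, but a gene without UMIs in any 1 of them could not be. In WT, tdT 1 and tdT 2, 28, 24 and 23 of the 30 genes had UMIs to compare. Fabp4 was at 78.8 CPM in the patrolling cells of WT, 53.1 in tdT 1 and 110 in tdT 2, and at 0 UMIs in the classical cells of each. Cd300e was at 54.6, 212 and 68.7 CPM, again with 0 UMIs in the classical cells. Bcl2a1b was at 121, 255 and 151 CPM against 4.25 CPM in the WT classical cells and 0 UMIs in the tdT ones. F13a1 was at 261, 10.6 and 261 CPM against 1032, 1248 and 486 CPM. These 4 genes had the same direction in each library, on 14, 9 and 11 patrolling cells. Other genes did not: Ccl2 was higher in the patrolling cells of both tdT libraries (53.1 against 38.4 CPM and 591 against 281 CPM), and Lgals1 was higher in those of tdT 1 (446 against 365 CPM).

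Between the 353 TNF-Tg and 14 WT patrolling cells, levels could be compared for counting error only. Nr4a1 was at 555 CPM in TNF-Tg and 212 CPM in WT (log2 ratio 1.39, 0.91 to 1.91), Hp at 2104 and 461 CPM, C3, the central complement component, at 387 and 84.9 CPM, and Nfkbia at 856 and 243 CPM. Levels of Itgal (697 and 612.5 CPM), Adgre4 (370 and 315 CPM) and Klf4 (518 and 503 CPM) had intervals of the ratio that included 0. The WT cells had more H2-Ab1, an MHC class II chain (2134 against 163 CPM), Cd74, the invariant chain (6676 against 760 CPM), and Mki67, a marker of dividing cells (388 against 3.88 CPM). Mki67 lay in 2 WT cells. Several classical and macrophage genes also stood higher in the WT cells. Among them were Ccr2 (994.5 against 294 CPM), Fn1 (1146 against 562 CPM), Apoe (2583 against 843 CPM) and Mrc1 (121 against 7.76 CPM). Not all such genes did, as with Hp above and Ly6c2 (218 against 278 CPM). The 20 Mrc1 UMIs of WT lay in 2 cells, 14 of them in 1 cell. For Apoe, which lay in 13 of the 14 WT cells, 3 cells held 53.8% of the UMIs. For Nr4a1, 3 of the 14 WT cells held 68.6% of the UMIs. For H2-Ab1, 3 of the 14 WT cells held 83.2% of the UMIs, and without them its level was 546 CPM. For Cd74, 3 cells held 81.0% and the level without them was 1935 CPM. The WT cells without Ly6c2 numbered 8 of 14 (57.1%, 28.9 to 82.3%), against 51.0% (45.7 to 56.3%) in TNF-Tg. With 14 cells from 1 pool, which cells were caught and the genotype cannot be told apart.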

How the data were processed

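Deposited per the labels were 4 libraries of droplet 3' scRNAseq, each from 3 pooled mice. The deposited values are counts of UMIs per gene and cell, not normalized, which the authors made with Cell Ranger. The submitters' processing notes name Cell Ranger 3.1 and 3.1.0, Seurat 4.0.3 and mm10, and the matrix headers name Cell Ranger 3.1.0 (tdT 1) and 6.0.1 (tdT 2, WT and TNF-Tg). The annotation release is not given in the sources used here. Gene names are those of the files, and promoters are from RefSeq tables (GRCm38.p6).

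Classes were set by limits on UMI counts: classical monocytes held Ly6c2, at least 5 UMIs of Ly6c2, Chil3 and Plac8 together, at least 5 of Lyz2, and under 3 of the 4 genes of the patrolling limits. Neutrophils held at least 100 UMIs of S100a8 and S100a9 per 10000 and at least 3 of Retnlg, Csf3r and Cxcr2. Counts were summed per class within a library. Genes at 50 CPM or more in a compared class, other than those read by its limits, were counted (genes under that level, and genes of the limits, were not), with 5 CPM added before log2 ratios. A gene that reached 50 CPM in 1 class alone leaned toward that class by construction. Ratios of single genes printed in the results carry no added CPM and have exact conditional 95% intervals, counts and medians of lists and the values under other settings carry the added 5 CPM, levels have exact Poisson intervals and shares Clopper-Pearson intervals, all for counting error only. With 1 library per genotype and cells chosen by their transcripts, no test was made. UMIs are corrected for amplification by the authors' counting.

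The members, gene lists and comparisons were chosen with earlier results of these data known. Named genes were the 15 highest and 15 lowest against classical monocytes, the 15 with the largest smallest ratio to the other 5 classes, and list members. Doublets were called with Scrublet in scanpy 1.11.5 and kept. Python 3.11.15, numpy 2.4.6, scipy 1.17.1 and matplotlib 3.10.9 were used, and edgeR 4.0.16 for TMM factors as an alternative. The summing and interval steps were tested on simulated data. Alternatives changed the limits, thinned the cells to 2000 UMIs, left out doublets or low-quality cells, and changed scaling, added CPM and the filter on low levels. Some list members are counted with their lists but not reported here by name.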

Additional observations from a re-analysis of the deposited data

Results flagged for a closer look

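Of the 30 genes highest and lowest against classical monocytes, 4 had the opposite direction in the WT library, with at least 10 UMIs there in both classes together. These genes, known from resident macrophages and, for Pf4, also from platelets, were lower in patrolling than in classical monocytes of TNF-Tg. In WT the log2 ratio of patrolling to classical monocytes was 0.68 for Dab2 (54.6 against 34.0 CPM), 0.19 for Mrc1 (121 against 106 CPM), 0.36 for Pf4 (36.4 against 28.3 CPM) and 0.51 for Maf (109 against 76.4 CPM). In WT 1 patrolling cell held 8 of the 9 Dab2 UMIs and 14 of the 20 Mrc1 UMIs lay in 1 cell. Without the cell richest in each gene in both classes, a check chosen after seeing the data, the patrolling and classical levels were 7.30 and 24.7 CPM for Dab2, 43.8 and 93.6 CPM for Mrc1, 25.9 and 21.5 CPM for Pf4, and 85.8 and 68.6 CPM for Maf, so that the direction turned for Dab2 and Mrc1. The WT values rest on 14 patrolling and 63 classical cells, and the difference between the libraries was not tested.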

How the results depend on the processing

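No paired analysis was possible because no test was made and the WT and TNF-Tg groups hold 1 library each. For the same reason no library could be left out. The patrolling share of TNF-Tg cells was 11.9% at a minimum of 2 UMIs of the 4 genes, 8.43% at 5, 11.5% without the Cx3cr1 limit and 4.08% with limits read after thinning to 2000 UMIs. In WT it was 0.911% without Cx3cr1, 0.510% without the ceilings on C1q and dendritic cell genes and 0.0401% after thinning, and in tdT 1 2.59% without Cx3cr1. The patrolling share of monocytes was 54.4%, 42.6% and 28.9% in TNF-Tg at minimums of 2 and 5 and after thinning, and 51.8% with classical monocytes set by 3 UMIs of Ly6c2. In WT it was 44.2% without Cx3cr1, 30.8% without the ceilings and 5.56% after thinning. Under each of these settings the TNF-Tg value was above the WT value.

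Genes at least 2-fold above classical monocytes numbered 338 without a filter on low levels, 50 at 200 CPM and 334 in cells without Ly6c2, and those lower numbered 147, 21 and 157, and 117 after thinning. Other settings gave 131 to 268 higher genes. Genes 4-fold above every other class numbered 31 after thinning, 11 with 20 CPM added, 9 at 200 CPM and 36 in cells without Ly6c2. Of 705 values of named genes, 595 stayed within their counting interval and 9 changed sign. Without the globin-rich cell the log2 ratio to classical monocytes of Hba-a2 was -0.14, and the smallest ratios to the other classes were -0.76 for Hbb-bs, -0.14 for Hba-a2, -0.056 for Hba-a1 and -0.44 for Hbb-bt. The smallest ratio was -0.76 for Hbb-bs and -0.10 for Hbb-bt after thinning, and -0.34 for Hbb-bs in cells without Ly6c2. Pf4 was at 0.68 against classical monocytes without the ceilings. Apart from the globin cell, the causes were not tested. Leaving out the globin-rich cell, cells rich in S100a8 and S100a9, cells with Ly6c2 or shared barcodes, and medians over all listed genes, were chosen after seeing the data. One library per genotype, 14 WT cells and a limit that falls within a continuous range bound what these values can show.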

Other observations

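The tdTomato reporter transcript was counted in the tdT 2, WT and TNF-Tg libraries. In tdT 2 the 11 patrolling monocytes had 0 reporter UMIs, which allows a share of cells with a UMI of up to 27.3% (3 of 11, taking 3 counts as the floor). In the same library 4 of 12 classical monocytes had 6 reporter UMIs together, and 62 of 242 stromal cells had 90. In WT and TNF-Tg, from mice without the reporter, patrolling, classical and stromal cells had 0. The patrolling monocytes of a library sorted for tdT+ cells thus showed no reporter transcript at this depth.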
